A study of Mus musculus with 41 samples.

Results

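The 8 genes described here encode mouse enzymes that write, copy or remove cytosine methylation, or partners of such enzymes. They are Dnmt1 and its partner Uhrf1, Dnmt3a, Dnmt3b and their cofactor Dnmt3l, and Tet1, Tet2 and Tet3. They were taken by name from a fixed list, with gene identifiers matched to symbols in GENCODE M21, and they are 8 of the 55536 genes in each of 2 count tables. The 41 samples of the series, from C57BL/6 mice, address what RHOX10 does in male germ cells, where this homeobox protein acts as a transcription factor encoded on the X chromosome. RNA-seq was made from testis germ cells sorted by fluorescence for an OCT4-eGFP reporter, with 4 wild-type libraries and 4 labelled Rhox10-null, each from the pooled testes of 3 animals whose age the labels do not give. iSLAM-seq, a 3′ end sequencing assay of metabolically labelled RNA after a transcription factor is switched on, was made from germline stem (GS) cells, cultures grown from newborn testes. In all GS cells, controls included, endogenous Rhox10 had been knocked down with an shRNA. They then carried either a Rhox10-ERT2-mCherry fusion that responds to 4-hydroxytamoxifen (called Rhox10 below) or the ERT2-mCherry empty vector (Ctrl), with 2 libraries per vector at 0, 0.5, 1, 2, 4 and 8 h. CUT&Tag, which tags DNA where an antibody sits, used knockdown GS cells, with 3 samples each for HA-tagged RHOX10, an IgG control and an HA-tagged empty vector.

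DNA methylation in mammals is placed on the cytosine of CpG dinucleotides. After each round of replication UHRF1 binds the hemimethylated daughter duplex and recruits DNMT1, which copies the mark to the new strand. DNMT3A and DNMT3B methylate sites that carried no mark, and DNMT3L, which has no catalytic activity of its own, stimulates them. The TET enzymes oxidise 5-methylcytosine, which leads to its loss. In the male germ line the methylation pattern is erased in primordial germ cells and set again in prospermatogonia, before the spermatogonial stem cells that GS cultures derive from have formed.

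Dnmt1, Uhrf1 and Dnmt3b had lower levels, and Dnmt3a and the 3 Tet genes higher levels, in the libraries labelled null than in wild-type libraries. Each of these 7 differences passed the test under the main scaling. With libraries scaled to a list of germline genes instead, Dnmt1 was called higher in those labelled null, and Uhrf1 and Dnmt3b were not called. In GS cells Dnmt1, Uhrf1 and Dnmt3b were lower and Tet2 and Tet3 higher with Rhox10 than with the empty vector on average over 0.5 to 8 h. Dnmt1, Uhrf1, Dnmt3b and Tet2 already differed at 0 h under the main scaling, while scaling to the germline genes left 1 member called there, as higher. Tet2 was the only one of the 8 called for a change in the difference between the vectors after 0 h. Dnmt3l was at 8 to 41 counts in all 32 RNA libraries and was called in neither assay.

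Rhox10 itself gave 3, 10, 5 and 3 counts in the 4 wild-type libraries, against 11, 9, 4 and 6 for the 4 labelled null, so its counts did not separate the genotypes, and the labels do not say which part of the gene was removed. Directions between genotypes therefore rest on the labels. In GS cells Rhox10 RNA was at 34.0 to 46.6 CPM (counts relative to the scaled library size, the usual CPM unit) in the Rhox10 libraries, 0 h included, and at 0.20 to 2.41 CPM in the Ctrl libraries. The RNA-seq libraries held 6602089 to 8278887 counts, of which a single gene, Gm42418, took 50.98% to 59.37%, and the iSLAM-seq libraries held 9419615 to 12645845. Replicates had correlations (log2 CPM) of 0.972 to 0.979 inside each genotype and of 0.956 to 0.979 inside each iSLAM-seq group, lowest in the Ctrl pair at 0.5 h. The labels call the replicates biological, and p-values here measure the spread between these libraries.

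Markers of the other cells of the testis were present in the sorted samples and moved with genotype. The summed level of 8 germ cell markers ranged over 227.6 to 242.8 CPM among wild-type libraries, against 121.7 to 129.5 CPM for those labelled null. For 7 peritubular and stromal markers the sums were 438.9 to 462.8 and 697.8 to 737.5 CPM, with 7 of 7 higher, and for 8 Sertoli cell markers 468.1 to 488.5 and 498.0 to 513.4 CPM, with 2 higher and 3 lower. Leydig cell markers summed to 34.1 to 35.8 and 46.1 to 55.9 CPM, those of endothelial cells and macrophages to 32.2 to 37.3 and 46.1 to 50.9 CPM, and erythroid markers to 1.35 to 4.05 and 77.9 to 86.3 CPM. No marker was at 0 in every library of a group except the erythroid gene Slc4a1 in wild-type libraries. In such bulk samples, fewer cells of a type and less RNA per cell cannot be told apart, and the part of this mixture in the differences below was not tested.

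RHOX10 peaks lay at 3 of the 8 loci. The authors' peak annotation, 1 merged list of 5147 peaks with a median score of 127.5, assigns a peak within 3 kb of the transcription start to Dnmt3a and to Tet2, where 27.7% of the genes tested in RNA-seq have one. Measured instead from all GENCODE M21 start sites, Tet3 joined them, against 33.5% of genes. The share of members with a peak was thus 2 of 8 and 3 of 8, close to the background. The list gives no value per library, so the peaks cannot be compared with the IgG or empty-vector samples here.

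The Dnmt3a peak (mm10 chr12:3807978-3808985, score 158.5) lies in the first intron, its centre 1321 bases past the nearest start site, and 59.1% of peaks score no higher. The Tet2 peak (mm10 chr3:133544569-133545188, score 98.5) is centred 488 bases before the start site the authors used and 261 bases past the most upstream GENCODE start. The Tet3 peak (mm10 chr6:83441379-83442161, score 89.2) was assigned by the authors to B230319C09Rik, a transcript on the opposite strand that lies within the Tet3 gene, and its centre lies 92 bases before a Tet3 start. For the other 5 genes the peak nearest to any start site was 22240 bases (Tet1) to 139100 bases (Dnmt3l) away, and the authors assigned it to another gene.

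A stretch of the exon-free sequence of each peak is shown because CpG is the substrate of these enzymes and the 3 stretches differ in it. For Dnmt3a and Tet2 it covers the central 300 bases, out of 1008 and 356 exon-free bases in the peak. For Tet3 it covers the 76 bases between the first exons on the 2 strands, out of 132. Each runs 5′ to 3′ on the strand of the gene, read from the mm10 (GRCm38) reference, with CpG in capitals. The stretches are chr12:3808332-3808631 (plus strand), chr3:133544729-133545028 (minus strand) and chr6:83441679-83441754 (minus strand).
Dnmt3a: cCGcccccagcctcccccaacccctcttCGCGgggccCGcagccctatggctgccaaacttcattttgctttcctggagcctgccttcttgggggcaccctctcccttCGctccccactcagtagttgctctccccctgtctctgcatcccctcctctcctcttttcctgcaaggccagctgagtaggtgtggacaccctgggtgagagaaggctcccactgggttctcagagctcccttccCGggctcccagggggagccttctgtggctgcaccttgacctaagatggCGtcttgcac
Tet2: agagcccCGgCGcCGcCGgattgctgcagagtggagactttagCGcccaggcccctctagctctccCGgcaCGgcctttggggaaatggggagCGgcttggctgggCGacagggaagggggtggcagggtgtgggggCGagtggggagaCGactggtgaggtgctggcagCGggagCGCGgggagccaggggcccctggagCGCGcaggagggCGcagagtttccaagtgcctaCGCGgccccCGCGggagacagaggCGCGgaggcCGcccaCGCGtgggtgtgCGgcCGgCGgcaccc
Tet3: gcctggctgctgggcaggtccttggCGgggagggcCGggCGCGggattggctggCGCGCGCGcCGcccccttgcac

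The printed Dnmt3a stretch holds 7 CpG and is 63.0% G and C, the Tet2 stretch holds 29 CpG at 73.7%, and the shorter Tet3 stretch holds 9 at 80.3%. In the central 300 bases of each peak, whose median is 25 CpG over 5143 peaks, the Tet2 window with 29 and the Tet3 window with 22 were near the middle. The Dnmt3a window with 7 was at percentile 5.6. The 4-letter homeodomain core TAAT or its reverse complement ATTA occurred in 0 of these 3 windows and in 26.8% of the 300-base windows of all peaks, which says only that these letters are not in these windows. Of 15 RefSeq promoters of the 8 genes (300 bases around a start, GRCm38), 2 overlapped a RHOX10 peak, those of Tet2 and Tet3.

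**Figure D1:**
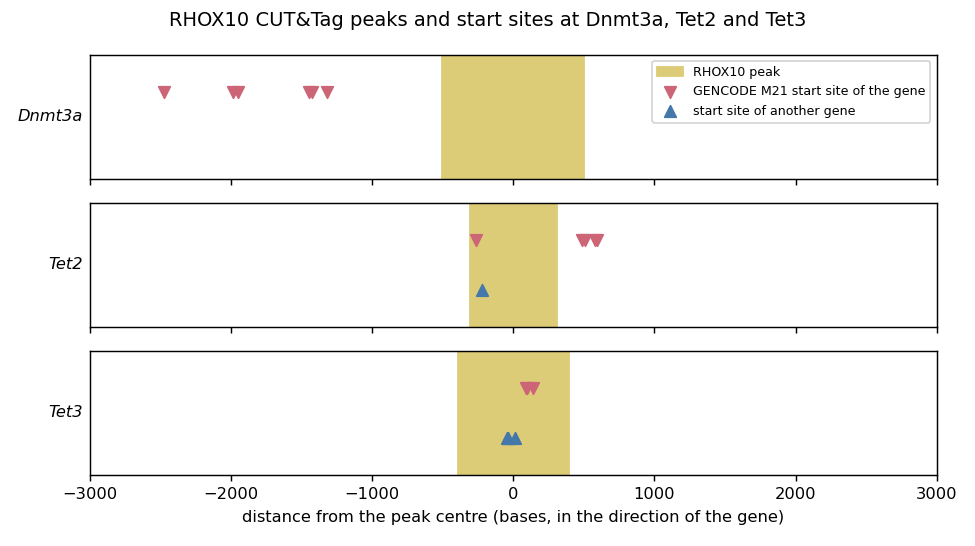
RHOX10 CUT&Tag peaks at Dnmt3a, Tet2 and Tet3: the horizontal axis is the distance in bases from the peak centre in the direction of the gene, the band is the peak, and triangles are GENCODE M21 start sites of the gene (down) or of another gene (up). The nearest Dnmt3a start lies 1321 bases before its peak centre, while the Tet2 and Tet3 peaks each contain a start site of the gene and of a transcript on the other strand.

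Between genotypes in RNA-seq, 7 of the 8 genes were called by edgeR's quasi-likelihood test at a Benjamini-Hochberg adjusted p under 0.05, where 37.5% of the 13538 genes tested were called. Of the 8, 4 were higher and 3 lower in libraries labelled null, against 18.7% and 18.8% of all genes. The same 7 genes had no overlap in CPM between the genotypes, which held for 32.2% of all genes. The median log2 fold change of the 8 was 0.29, and that of all genes tested was 0.00. Differences are given as labelled null minus wild-type, and CPM values use library sizes scaled by TMM, which sets the bulk of genes to no change.

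Dnmt1, which copies methylation at replication, was at 84.1, 83.8, 83.4 and 90.5 CPM in the 4 wild-type libraries and at 61.5, 61.7, 62.4 and 58.1 CPM in the 4 labelled null. Every wild-type library was above every library labelled null. The log2 fold change of Dnmt1 was −0.49 (SE 0.0513, edgeR adjusted p = 2.35e-10).

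Uhrf1, which brings DNMT1 to newly replicated DNA, was at 50.0, 51.7, 46.6 and 50.2 CPM in the wild-type group and at 29.7, 28.6, 35.0 and 33.4 CPM in those labelled null. The groups did not overlap, and the 2 genes of the maintenance pair were lower together. The log2 fold change of Uhrf1 was −0.65 (SE 0.0635, edgeR adjusted p = 3.31e-11).

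Most of the listed genes of S phase, when both act, were lower too. Of 20 S-phase and proliferation genes, 12 were lower in libraries labelled null, 1 was higher (Mki67, at 0.20) and 7 were not called. Of all genes tested, 18.8% were lower and 18.7% higher. The median log2 fold change of the 20 was −0.33. Their summed level was 634.9 to 640.8 CPM for wild-type libraries, against 518.6 to 556.4 CPM for those labelled null. The part of this in the Dnmt1 and Uhrf1 values was not tested.

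Among the de novo enzymes Dnmt3a and Dnmt3b differed in opposite directions. Dnmt3b was at 9.28, 9.75, 9.45 and 11.1 CPM in the wild-type group and at 6.20, 6.85, 6.22 and 5.49 CPM in those labelled null. All wild-type values were above all values labelled null, from 41 to 82 counts per library (log2 fold change −0.68, SE 0.128, edgeR adjusted p = 4.22e-05).

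Dnmt3a was at 72.3, 81.8, 78.1 and 79.1 CPM in the wild-type group and at 94.6, 94.2, 93.9 and 91.6 CPM in those labelled null. Here the libraries labelled null were the higher ones, again without overlap. The log2 fold change of Dnmt3a was 0.27 (SE 0.05, edgeR adjusted p = 4.04e-05).

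Dnmt3l, the cofactor of both, was at 1.20, 1.37, 1.52 and 2.03 CPM in the wild-type group and at 2.72, 1.98, 1.67 and 2.81 CPM in those labelled null. These are 8 to 25 counts per library, and the groups overlapped. The log2 fold change was 0.57 (95% interval 0.01 to 1.13), and it missed the threshold at an edgeR adjusted p of 0.0993.

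All 3 Tet genes were higher in the libraries labelled null. Tet2 differed most among them, at 18.9, 19.8, 16.2 and 18.4 CPM in the wild-type group and 27.3, 28.3, 27.3 and 24.8 CPM in those labelled null. Its groups were well apart, with a log2 fold change of 0.55 (SE 0.0781, edgeR adjusted p = 2.44e-07).

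Tet3 was at 54.2, 51.8, 53.5 and 53.6 CPM in the wild-type group and 63.6, 67.5, 69.5 and 65.0 CPM in those labelled null, a log2 fold change of 0.32 (SE 0.0533, edgeR adjusted p = 7.10e-06). Tet1 was at 8.08, 11.6, 10.8 and 10.8 CPM in the wild-type group and 13.9, 13.4, 14.1 and 14.1 CPM in those labelled null, a log2 fold change of 0.43 (SE 0.108, edgeR adjusted p = 0.00149). In both genes the lowest library labelled null was above the highest wild-type library. Wild-type replicate 1 had the lowest Tet1 value.

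**Figure D2:**
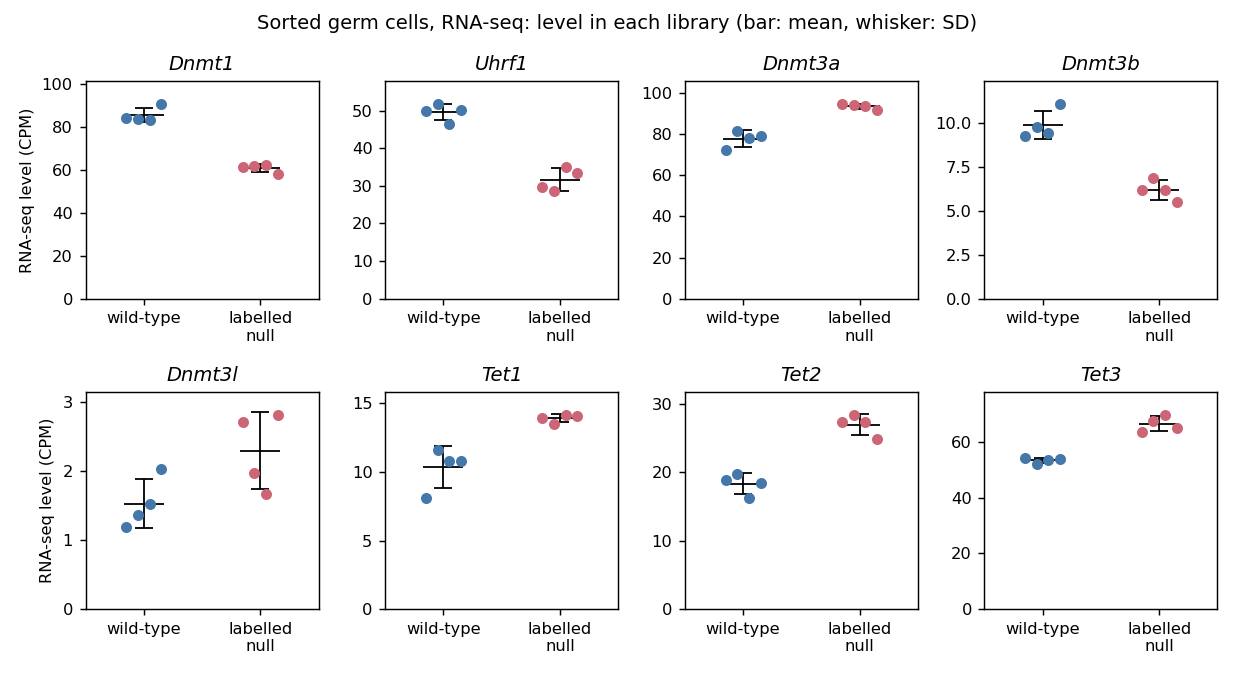
RNA-seq level (CPM, axes from 0) of the 8 genes in each wild-type library and each library labelled null, 4 a group, with the mean as a bar and the SD as a whisker. Dnmt1, Uhrf1 and Dnmt3b lie lower and Dnmt3a, Tet1, Tet2 and Tet3 higher in libraries labelled null without overlap, while the Dnmt3l groups overlap.

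Compared per exon length, as RPKM (CPM per kilobase of exon), Dnmt1 at 11.6 ± 0.456 and Uhrf1 at 11.6 ± 0.508 (mean ± SD, n = 4) were the highest of the 8 in wild-type libraries and did not differ beyond their spread. Dnmt3a followed at 4.68 ± 0.241 and Tet3 at 3.19 ± 0.0611 RPKM. Dnmt3b at 1.94 ± 0.159 and Tet2 at 1.09 ± 0.0907 RPKM came next, and Tet1 at 0.667 ± 0.0992 and Dnmt3l at 0.511 ± 0.119 RPKM were lowest, with overlapping ranges. In libraries labelled null Dnmt1 was at 8.26 ± 0.26 and Uhrf1 at 7.43 ± 0.712 RPKM, and Tet2 at 1.60 ± 0.0896 RPKM was above Dnmt3b at 1.21 ± 0.109 RPKM, the reverse of their order in wild-type libraries. Lengths are those of all annotated exons joined, which understates genes with long exons that are little used.

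The direction of the 3 lower genes depends on the scaling. Where libraries were scaled by their totals, the median of all genes shifted by 0.34 on the log2 scale, 8 of 8 members were called and no direction changed. Where they were scaled to 20 germline genes, which set that list rather than the bulk of genes to no change, the median shifted by 0.77 and 11557 genes were called higher against 95 lower. Dnmt1 was then higher in libraries labelled null at 0.29 (edgeR adjusted p = 7.86e-05), and Uhrf1 at 0.12 and Dnmt3b at 0.09 were not called, while Dnmt3a and the Tet genes stayed higher and Dnmt3l was called too, at 1.34. A change of scaling shifts all genes by nearly the same amount. Dnmt1, Uhrf1 and Dnmt3b therefore stayed below the shifted median and the other 5 above it by construction.

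Ratios of counts within a library need no scaling. They were formed after the values were seen and are given without a test. For every 100 Dnmt1 counts there were 19.4 to 23.6 Tet2 counts for wild-type libraries, against 42.6 to 45.9 for those labelled null. For Tet3 the ratios to 100 Dnmt1 counts were 59.3 to 64.4 and 103 to 112, for Tet1 9.61 to 13.8 and 21.8 to 24.2, and for Dnmt3a 85.9 to 97.6 and 150 to 158. The genotypes did not overlap in any of these 4 ratios. This follows from the levels above, with Dnmt1 lower and the other gene higher in every library labelled null, so it adds no separate evidence. How often other pairs of genes do so was not tested. Dnmt3a per 100 Dnmt3b counts came to 715 to 839 for the wild-type libraries, against 1380 to 1670 for those labelled null. Uhrf1 per 100 Dnmt1 counts overlapped between the genotypes, at 55.5 to 61.6 and 46.4 to 57.4.

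**Figure D3:**
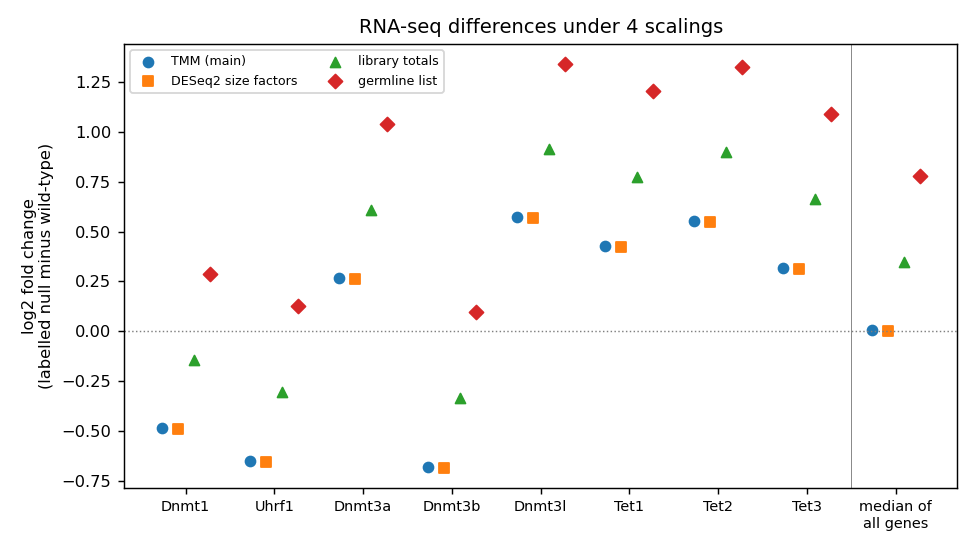
RNA-seq log2 fold change (labelled null minus wild-type) of each of the 8 genes and the median of all genes tested under 4 scalings of the libraries. All points rise together from TMM and DESeq2 size factors through library totals to the germline list, so that Dnmt1, Uhrf1 and Dnmt3b stay the lowest genes but cross 0 under the germline list, which moves the median of all genes to 0.78.

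In GS cells the vectors were compared at each time and as the average of 0.5 to 8 h, as Rhox10 minus Ctrl, in 1 edgeR fit over 24 libraries and 20642 genes. Over the average, 5 of 8 members were called, 2 higher and 3 lower, where 37.1% of all genes were called, 18.7% higher and 18.4% lower. The median log2 fold change of the 8 was 0.01 and that of all genes 0.00. Scaling to the germline list shifted the median of all genes here by 0.24, with 8147 genes higher and 847 lower. The levels of 2 members, Dnmt1 and Uhrf1, did not overlap between the vectors over the 10 libraries of each at 0.5 to 8 h, against 6.54% of all genes. These 10 are 2 libraries at each of 5 times, and the p-values measure the spread within such pairs. A difference between the cultures that carry the vectors cannot be told apart from an effect of the vector. At single times 4 members were called at 0 h (10.9% of all genes), 3 members at 0.5 h (14.5%) and 2 members at 1 h (9.91%). At 2 h 2 members, Dnmt1 and Uhrf1, were lower (3.94% of all genes) and 0 were higher (6.08%). Later, 4 members were called at 4 h (12.2%) and 5 members at 8 h (16.8%). The share of the 8 genes called was above that of all genes at each time, and the comparisons come from 1 fit.

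Dnmt1 was at a median of 481 CPM (466.8 to 504.9) in the 10 Ctrl libraries and 381 CPM (355.0 to 403.0) in the 10 Rhox10 libraries. The log2 fold change of Dnmt1 was −0.36 (SE 0.0243, edgeR adjusted p = 4.61e-11). At 0 h the Ctrl libraries were at 507 and 510 CPM and the Rhox10 libraries at 427 and 405 CPM, a log2 fold change of −0.29, so that the gap stood before induction, and at 8 h it was −0.48. The test for a change of this difference from 0 h gave an edgeR adjusted p of 0.532. Within Rhox10 cells the log2 fold change between 8 h and 0 h was −0.22 and was called (edgeR adjusted p = 0.0128). In Ctrl cells it was −0.03 and was not called (edgeR adjusted p = 0.819). The Rhox10 test over time (edgeR adjusted p = 0.101) and the wider gap at 8 h than at 0 h (0.242) were not called. Without the 0.5 h libraries the Rhox10 test over time was called for Dnmt1 (edgeR adjusted p = 0.00389). Scaled to the germline list, the averaged Dnmt1 difference was −0.12 and still called, and the 8 h difference was −0.25 and was no longer called (edgeR adjusted p = 0.0577). At 0 h that scaling left 1 member called higher and 0 lower, so Dnmt1, Uhrf1 and Dnmt3b lost their calls at 0 h.

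Uhrf1 was at a median of 222 CPM (193.1 to 246.5) in Ctrl and 158 CPM (128.7 to 175.2) in Rhox10 libraries. The difference in log2 level was −0.50 (SE 0.0432, edgeR adjusted p = 3.20e-09). It was −0.44 at 0 h and −0.67 at 8 h, with an edgeR adjusted p of 0.764 for a change from 0 h. Between 8 h and 0 h Uhrf1 was at −0.37 within Rhox10 cells (edgeR adjusted p = 0.0191). Within Ctrl cells it was at −0.14 and was not called (edgeR adjusted p = 0.452). The Rhox10 test over time (edgeR adjusted p = 0.127) and the wider gap at 8 h than at 0 h (0.479) were not called. Without the 0.5 h libraries the Rhox10 test over time was called for Uhrf1 (edgeR adjusted p = 8.63e-04). Scaled to the germline list, the averaged Uhrf1 difference was −0.26 and still called. The order of the 12 groups was the same kind for both genes: the 6 Ctrl groups took the 6 highest places and the 6 Rhox10 groups the 6 lowest, with Rhox10 at 8 h last.

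S-phase genes moved with this pair here too. Of the 20 listed, 16 were lower and 0 higher in Rhox10 libraries over the average, against 18.4% and 18.7% of all genes, with a median of −0.31. Their summed level was 4342 to 4575 CPM in Ctrl and 2966 to 3527 CPM in Rhox10 libraries, 0 h included. Germ cell markers summed to 1573 to 2337 CPM in Ctrl and 1717 to 2002 CPM in Rhox10 libraries, with 5 of 8 lower. The share of either in the Dnmt1 and Uhrf1 differences was not tested. Stromal markers summed to 981 to 1601 and 1171 to 2001 CPM, Sertoli cell markers to 183.1 to 444.8 and 242.5 to 556.7 CPM with Amh and Rhox8 at 0 in both, Leydig cell markers to 8.94 to 17.1 and 8.03 to 14.1 CPM, endothelial and macrophage markers to 50.4 to 68.9 and 37.2 to 53.5 CPM, and erythroid markers to at most 2.31 CPM.

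Dnmt3b was lower with Rhox10 over the average (−0.25, SE 0.0489, edgeR adjusted p = 2.48e-04), with Ctrl libraries at 74.7 to 94.3 CPM and Rhox10 libraries at 62.4 to 77.8 CPM, which overlap. At 0 h it was at 87.5 and 98.1 CPM in Ctrl and 71.2 and 68.6 CPM in Rhox10 libraries, a log2 fold change of −0.41 (edgeR adjusted p = 0.0162). At 8 h the values were 74.7 and 82.7 against 73.1 and 77.8 CPM, and the difference of −0.06 (95% interval −0.29 to 0.17) was not called. Scaled to the germline list, the averaged Dnmt3b difference was −0.01 and was no longer called.

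Dnmt3a, whose first intron holds the peak with the CpG-poor central stretch, was not called between the vectors at any time or over the average (−0.06, 95% interval −0.14 to 0.02). Under scaling to the germline list it was 0.18, with an edgeR adjusted p of 0.0065, and at 8 h it was 0.36, also called (edgeR adjusted p = 0.0311). It fell with time in the Ctrl cells, from 123 and 118 CPM at 0 h through 110 and 113, 109 and 106, 101 and 103, and 90.4 and 96.6 CPM to 85.4 and 84.4 CPM at 8 h. Each later pair lay below the pair before it. Between 8 h and 0 h the log2 fold change was −0.50 in Ctrl (edgeR adjusted p = 7.03e-04, and 0.0051 for any change over time, with 5.74% of all genes called). In Rhox10 cells it was −0.22, the test over time gave an edgeR adjusted p of 0.0884, and the difference between the vectors in this change was not called (adjusted p = 0.301). Without the 0.5 h libraries the Rhox10 test over time was called for Dnmt3a (edgeR adjusted p = 0.0168).

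Dnmt3l stayed at 16 to 41 counts per library, 1.58 to 3.66 CPM in Ctrl and 2.01 to 3.54 CPM in Rhox10 libraries at 0.5 to 8 h. With such counts the averaged difference of 0.07 had a 95% interval of −0.32 to 0.46, and a difference of 0.07 was not detectable at this depth.

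Tet2 had the widest difference between the vectors and the only one called for a change after 0 h. At 0 h it was at 7.80 and 7.28 CPM in Ctrl and 14.7 and 17.0 CPM in Rhox10 libraries. The 2 h values were 8.43 and 10.2 against 10.3 and 9.08 CPM, and the 8 h values 4.00 and 5.18 against 17.9 and 17.9 CPM. The vectors were apart at 0 h, overlapped at 2 h and were farthest apart at 8 h, where Ctrl reached the lowest and Rhox10 the highest of the 12 group means. In order of time, the differences on the log2 scale were 1.07, 0.65, 0.40, 0.05, 0.25 and 1.96. At 8 h the SE was 0.209 and the edgeR adjusted p 4.77e-07, and over the average the value was 0.66 (SE 0.0898, edgeR adjusted p = 2.73e-06).

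The change of the Tet2 difference from 0 h had an edgeR adjusted p of 0.00133, and 2.39% of all genes were called by this test. The larger gap at 8 h than at 0 h, 0.89 on the log2 scale, did not pass on its own (edgeR adjusted p = 0.112). The call thus rests on the whole course, the narrowing to 2 h and the widening at 8 h. For the change between 0 h and 8 h alone, 5 of the 8 genes had an unadjusted edgeR p under 0.05, and 0 were called. Within the Rhox10 cells Tet2 changed over time (edgeR adjusted p = 0.00472, with 9.44% of all genes called): it fell from 0 h to 2 h and was back at 8 h, where it was 0.18 above 0 h (95% interval −0.21 to 0.57). Within the Ctrl cells it was 0.72 lower on the log2 scale at 8 h than at 0 h (edgeR adjusted p = 0.0497). The Ctrl test over time gave 0.0431, and it lost its call in 23 of 32 alternatives, at 0.39 without Ctrl 8 h replicate 1. These are 42 to 185 counts per library.

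Per 100 Dnmt1 counts, which needs no scaling, Tet2 stood at 1.43 to 1.54 in Ctrl and 3.45 to 4.19 in Rhox10 libraries at 0 h. At 2 h these ratios were 1.77 to 2.13 and 2.34 to 2.55, and at 8 h they were 0.792 to 1.06 and 4.98 to 5.05. The gap in this ratio narrowed at 2 h and was widest at 8 h, as in the scaled levels, with Dnmt1 itself lower in Rhox10 cells.

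Tet3, which shares its peak with the start of B230319C09Rik on the other strand, was higher over the average (0.27, SE 0.054, edgeR adjusted p = 3.40e-04, and 0.51 when scaled to the germline list). At 0 h it was at 54.5 and 50.5 CPM in Ctrl and 54.0 and 50.3 CPM in Rhox10 libraries, and the difference of −0.01 (95% interval −0.26 to 0.24) was not called. At 4 h Tet3 was at 40.2 and 45.7 CPM in Ctrl and 61.1 and 55.0 CPM in Rhox10 libraries, and at 8 h at 44.6 and 41.2 against 61.1 and 57.4 CPM. The difference was called at these last 2 times (0.43 and 0.46). The change from 0 h was not called (edgeR adjusted p = 0.449), though it reached 0.0435 without Ctrl 0.5 h replicate 1. The 8 h call was lost without Ctrl 8 h replicate 2 and without Rhox10 8 h replicate 1 (edgeR adjusted p = 0.0928 and 0.0709).

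Tet1 was called at 8 h alone (0.74, SE 0.211, edgeR adjusted p = 0.0167), at 8.28 to 9.96 CPM in Ctrl and 15.2 to 15.3 CPM in Rhox10 libraries. Over the average its 0.17 was not called (95% interval −0.02 to 0.37), while scaled to the germline list it was 0.41 and called (edgeR adjusted p = 0.00148). The 8 h call was lost without Ctrl 8 h replicate 1 (edgeR adjusted p = 0.152) and without either Rhox10 8 h replicate (0.0695 and 0.0735), from 82 to 161 counts per library.

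**Figure D4:**
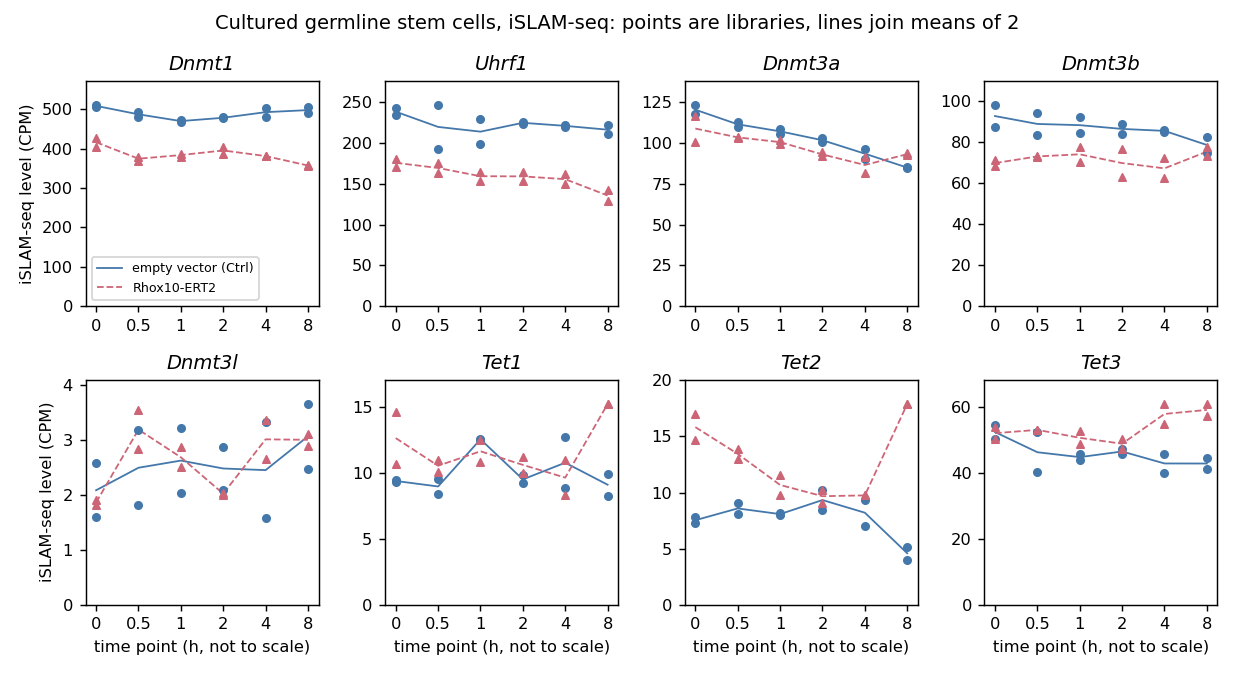
iSLAM-seq level (CPM, axes from 0) of the 8 genes at 0 to 8 h, with 1 point per library and lines through the means of 2 libraries for the empty vector (circles, solid) and Rhox10-ERT2 (triangles, dashed). Dnmt1 and Uhrf1 are lower with Rhox10 from 0 h on, with wider gaps at 8 h than at 0 h, a widening that was not called for either gene. The Tet2 lines start apart, meet at 2 h and part at 8 h, where Rhox10 is at 17.9 CPM and Ctrl at 4.59 CPM.

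In both assays Dnmt1, Uhrf1 and Dnmt3b were lower and Tet2 and Tet3 higher in the arm named first in each difference. That arm is labelled Rhox10-null in RNA-seq and carries added Rhox10 in iSLAM-seq. The assays differ in cell source, kit and depth, share no library and were not tested against each other. Dnmt1 was at −0.49 between genotypes and −0.36 between vectors, Uhrf1 at −0.65 and −0.50, Dnmt3b at −0.68 and −0.25, Tet2 at 0.55 and 0.66, and Tet3 at 0.32 and 0.27. Dnmt3a, at 0.27 and −0.06, and Tet1, at 0.43 and 0.17, were called in RNA-seq but not over the iSLAM-seq average.

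**Figure D5:**
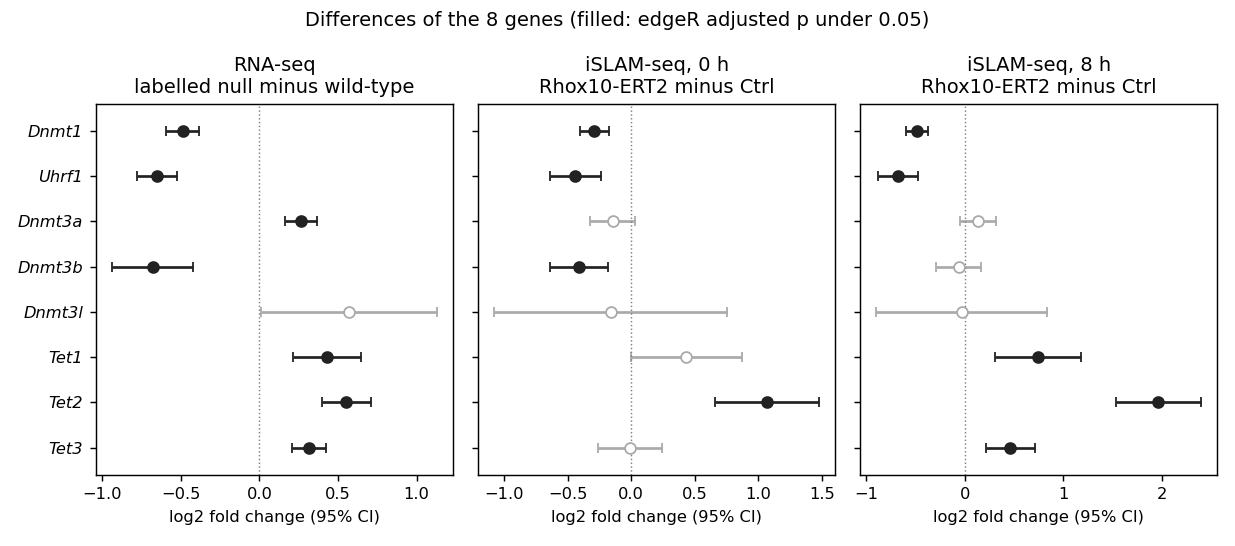
Log2 fold change with its 95% interval for the 8 genes between genotypes in RNA-seq (labelled null minus wild-type) and between vectors in iSLAM-seq at 0 h and 8 h (Rhox10-ERT2 minus Ctrl), each panel with its own axis; filled points have an edgeR adjusted p under 0.05. Dnmt1 and Uhrf1 lie below 0 in all 3 panels and Tet2 above, from 0.55 in RNA-seq to 1.96 at 8 h.

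A list of 50 other genes of the methylation pathway was read beside them. In RNA-seq 46 were tested, 12 were higher and 11 lower, with a median of −0.06. Over the iSLAM-seq average 49 were tested, 10 were higher and 16 lower, with a median of −0.03. The share called was thus 23 of 46 and 26 of 49, above the share of all genes, with no lean to a side in RNA-seq.

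Of 4 genes for piRNA-directed methylation, the route that silences transposons in prospermatogonia, 3 were lower in both assays. Tex15, a nuclear effector of that route, was at 40.1 CPM in libraries labelled null and 72.9 CPM in wild-type libraries (log2 fold change −0.86) and at −0.23 between vectors. Morc1, a silencing ATPase, was at −0.98 and −0.70, and Piwil4, the nuclear PIWI protein, at −0.64 and −0.36. Spocd1 was called in neither, at 0.42 and −0.14. These genes are themselves germ cell genes, and the germ cell markers were lower in the same libraries (7 of 8 and 5 of 8 called). Their part in these values was not tested.

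Of 15 regulators and partners of the DNA methyltransferases, 6 were higher and 3 lower in RNA-seq and 1 was higher and 6 lower over the iSLAM-seq average. Hells, a chromatin remodeller needed for methylation, and Cdca7, its activator, were lower in both, Hells at −0.63 and −0.39 and Cdca7 at −1.10 and −0.31. Uhrf2, the paralogue of Uhrf1, was higher in both at 0.39 and 0.18, opposite to Uhrf1. In RNA-seq the higher genes included Zfp445 at 0.36, a zinc finger protein that protects imprints, and Ehmt2 at 0.36, a histone H3 lysine 9 methyltransferase. Nsd1, whose H3K36 mark attracts DNMT3A, was higher there at 0.23. Over the iSLAM-seq average Ehmt2 was called lower at −0.29, and Zfp445 at −0.09 and Nsd1 at 0.00 were not called.

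Of 18 genes that regulate TET enzymes or repair their products, 15 were tested in RNA-seq with 3 higher and 2 lower, and 17 in iSLAM-seq with 5 higher and 5 lower. Cxxc4, which binds TET2, was higher in both at 0.72 and 0.66, and Ogt, a glycosyltransferase partner of the TET proteins, was higher in RNA-seq at 0.43. The repair genes Parp1 at −0.72 and Apex1 at −0.63 were lower in RNA-seq, and Parp1 was lower in iSLAM-seq too at −0.35, with Xrcc1 at −0.39. The DNA glycosylase gene Neil2 was at 0.39 in RNA-seq and −0.54 in iSLAM-seq. In iSLAM-seq Neil3 was lower at −0.76, Neil1 higher at 0.37 and the deaminase gene Apobec1 higher at 1.01. Idh1 at 0.51 and Idh2 at 0.65, which make the 2-oxoglutarate that TET enzymes consume, were higher there.

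Of 8 methyl-CpG readers, 2 were higher and 1 lower in RNA-seq and 3 higher in iSLAM-seq, with Zbtb4 higher in both at 0.36 and 0.84 and Mbd3 higher in iSLAM-seq at 0.27. Of 5 genes that supply methyl groups, Mat2b, a subunit of S-adenosylmethionine synthase, was lower in RNA-seq at −0.49, and in iSLAM-seq Mat2a, the catalytic subunit, was higher at 0.32. By the test for a change from 0 h, 1 of these 49 genes was called, a share near the 2.39% of all genes: Gadd45b, a stress-induced gene linked to demethylation (edgeR adjusted p = 0.0013), which was named after its value was seen. Its difference between the vectors was 0.74 at 0 h and −0.46 at 8 h.

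For each of the 8 genes, the genes most like it across the 24 iSLAM-seq libraries were taken by Pearson's r of log2 CPM among about 10162 genes with a mean of at least 10 CPM. The libraries share their vector and time groups, so these are descriptions. Dnmt1 was most like Ppil1 (0.964), Slc39a4 (0.959) and Siah1b (0.958). Uhrf1 was most like Kif15 (0.946), Mphosph6 (0.941) and Rrm1 (0.938). Dnmt3a was most like Slc16a3 (0.879), Isoc1 (0.864) and Ccne1 (0.858), and Dnmt3b most like Mum1 (0.888), Hdgfl3 (0.879) and Zfp217 (0.875). Tet2 was most like Zfp608 (0.862), Slc35d1 (0.857) and Agrn (0.855), and Tet3 most like Rnf145 (0.849), Gas1 (0.842) and Nde1 (0.841). Tet1 (Hars2, 0.69) and Dnmt3l (Vps52, 0.683) had the lowest values among their closest genes. Among the 8 themselves Dnmt1 and Uhrf1 had an r of 0.93, Dnmt1 and Dnmt3b 0.747, Tet2 and Tet1 0.641, and Dnmt1 and Tet2 −0.736.

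Reads of neighbours could add to some members, since no source used here says whether reads were counted by strand. The genes that overlap a member on the other strand, Dnmt3aos, Dnmt3bos, Aire at Dnmt3l, Gm42567 at Tet2 and B230319C09Rik at Tet3, had at most 4 counts in any RNA-seq library and at most 11 in any iSLAM-seq library. On the strand of Tet3, 5430434F05Rik had 9 to 25 RNA-seq counts beside 317 to 585 for Tet3. In GENCODE M21 on GRCm38 the members lie at chr9:20907209-20959888 (Dnmt1), chr17:56303321-56323486 (Uhrf1), chr12:3806007-3914443 (Dnmt3a), chr2:153649450-153687730 (Dnmt3b), chr10:78041947-78063622 (Dnmt3l), chr10:62804570-62908996 (Tet1), chr3:133463679-133545139 (Tet2) and chr6:83362373-83459084 (Tet3).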

How the data were processed

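The authors deposited 2 gene tables of raw read counts, in which, per the file headers, each library has a column. Per the submitters' processing notes, RNA-seq used STAR 2.5.2b and featureCounts on GRCm38, CUT&Tag used Bowtie2 2.2.5 and HOMER on mm10, and iSLAM-seq used mm10 and limma 3.42.2. The strand setting, and whether all or only converted iSLAM-seq reads were counted, are not given in the sources used here. Peak score, distance to the start site and gene are the authors', per the file headers. The tables held 0 further numeric sample columns.

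Counts were tested with edgeR 4.0.16 in R 4.3.3 (quasi-likelihood test, TMM scaling, filterByExpr, Benjamini-Hochberg adjustment over all genes tested, called at an adjusted p under 0.05). The RNA-seq model held genotype over 8 libraries and the iSLAM-seq model 12 group means over 24. The fits were tested on simulated counts. Alternatives were DESeq2 1.42.0, limma-voom (limma 3.58.1), other scalings and filters, a replicate block, each library left out and other peak rules. Leaving out replicate 4 of both genotypes was added after the data were seen.

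The members, lists and tests were chosen with earlier results of these data known. Named were the 8 members, Rhox10, up to 8 rises and 8 falls of largest size among called genes of the 50-gene pathway list in each assay, and the 3 genes of highest correlation with each member. A gene that this rule names is not reported here. Where other genes are named, they were chosen after their values were seen. Same-numbered libraries showed little shared deviation (correlations of −0.02 to 0.01 in RNA-seq and −0.02 to 0.04 in iSLAM-seq). In iSLAM-seq replicates 1 and 2 give the same value by construction. These values cannot show whether same-numbered libraries were prepared together, and the main fits did not pair them. Of 22 germline genes for scaling, 20 were tested in RNA-seq and 21 in iSLAM-seq. Precision is limited by counting error for Dnmt3l, at 8 to 41 counts per library.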

Additional observations from a re-analysis of the deposited data

Results flagged for a closer look

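Dnmt1 in wild-type replicate 4 of RNA-seq stood apart from the other 3 wild-type libraries, at 90.5 CPM against 83.4 to 84.1 CPM, a gap of 0.89 of the range of the group, above Dixon's 95% critical value for 4 samples. Of 16 groups of 4 examined, 1 met this criterion, and chance gives about 1 in 20 groups, or 0.8 of 16. Without that library, the RNA-seq count of called members stayed at 7.

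The Tet2 difference between the vectors changed from 0 h by the test of the difference itself (edgeR adjusted p = 0.001328). It was 1.07 at 0 h, 0.05 at 2 h and 1.96 at 8 h on the log2 scale. Over all 32 alternatives the adjusted p ran from 8.46e-06 to 0.0262.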

How the results depend on the processing

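Of the alternatives for single members, 1366 values kept their direction and side of the threshold, 30 lost a call, 15 gained one and 13 reversed. The 7 RNA-seq calls ranged from 6 to 8, and the 5 calls of the iSLAM-seq average from 5 to 6. Over all genes, RNA-seq calls numbered 5075 with edgeR and 2980 with DESeq2. Scaled to the germline list, RNA-seq values reversed to 0.2851 (Dnmt1), 0.0943 (Dnmt3b) and 0.1248 (Uhrf1), the averaged Dnmt3a value to 0.1761, and the 8 h values to 0.1643 (Dnmt3b) and 0.1946 (Dnmt3l). That scaling left 1 call at 0 h and 1 change over time in Ctrl. Dnmt3l at 8 h reversed to 0.0039 with limma-voom and 0.0319 with library totals. Changes over time in Ctrl numbered 1 with limma-voom and 1 without a filter on low counts.

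Leaving out 1 library each, Dnmt3l ran from −0.0023 to 0.2123 over the average and from −0.2521 to 0.2912 at 8 h, and Dnmt3b at 8 h from −0.1001 to 0.0281. Calls ran from 2 to 4 at 0 h (2 without Rhox10 0 h replicate 2) and from 3 to 5 at 8 h (3 without Rhox10 8 h replicate 1). Changes from 0 h ran from 1 to 3 (3 without Ctrl 0.5 h replicate 1). Changes over time ran from 1 to 2 in Ctrl, where Tet2 was the gene lost, and from 1 to 4 in Rhox10. The 4 came without either Ctrl 0.5 h library and also without all 0.5 h libraries, with Dnmt1, Dnmt3a and Uhrf1 added. The cause was not tested. A left-out iSLAM-seq library leaves 1 in its group, assumed to vary like the others.

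Members with a peak numbered 1 within 1 kb (Tet2) and 1 among peaks at or above the median score (Dnmt3a). With the replicate block, 7 members were called in RNA-seq and 5 over the iSLAM-seq average, and no call changed. Depth limits Dnmt3l most.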
